A study of Homo sapiens with 6 samples.

Results

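The genes for the proteins of the cytosolic ribosome were followed in nascent RNA of HCT116 cells, a human colorectal carcinoma line. Members were chosen by name alone: sense-strand rows for RPSA, RPLP0, RPLP1, RPLP2 and every RPL or RPS gene with a number, with pseudogenes, RPS6 kinases and Y-linked copies left out. This gave 82 genes of 22984 sense rows, 32 for the small subunit and 50 for the large subunit. Nascent RNA was measured by Bru-seq, in which cells take up bromouridine (2 mM, 30 min) and the labelled RNA is captured with an antibody and sequenced, so that reads fall on introns and exons of genes being transcribed. The 6 libraries came from HCT116 cultures given DMSO for 4 h (0.01%, 2 cultures), GSTO1 siRNA for 24 h as labelled (10 nM), C1-27 for 4 h or for 24 h (1 μM), or C1-14 for 4 h (10 μM). C1-27 is a chloroacetamide inhibitor of the glutathione transferase GSTO1 and C1-14 its inactive analogue. Each treatment had 1 library. None of the 6 libraries was a non-targeting siRNA or a 24 h DMSO control. Transfection or culture time and the treatments at 24 h therefore cannot be told apart.

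Ribosomes are built in the nucleolus from ribosomal RNA and a matched supply of the ribosomal proteins, and the protein genes are among the most actively transcribed of dividing cells. Most of these genes are short, begin transcription within a run of C and T, the terminal oligopyrimidine (TOP) tract through which mTOR signalling controls translation of their mRNAs, and many carry small nucleolar RNAs (snoRNAs) in their introns. Some have paralogues with a narrower or different use: RPS27L is a near copy of RPS27, RPL3L is made in striated muscle and RPL10L in testis.

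RefSeq promoter sequences (GRCh38.p14, 250 bases before and 50 after a listed start) were at hand for 65 of the 82 genes. In the 30 bases centred on the start, 51 of the 65 genes (78.5%) held a run of 8 or more C and T on the gene's strand, against 16.5% of 27305 symbols in the table. The median longest run was 11 bases for the ribosomal protein genes and 5 for all symbols. The letters CTTTC stood in that window in 47.7% of the ribosomal protein genes and 5.49% of all symbols. Over the 300 bases and both strands, CCGGAAG (the core letters of ETS-family sites) was present in 35.4% against 12.2%, ATGGCG in 40% against 12.7%, GGGCGG in 60% against 48.3% and TATAAA in 9.23% against 14%. Windows of 15 bases on each side of the start are printed for genes on which the results below turn: members with large differences or high levels, the stalk gene RPLP1, and the paralogue pairs RPS27/RPS27L and RPL26/RPL26L1. The longest run of C and T is in capitals.
RPL7A (chr9:133348203-133348232, +): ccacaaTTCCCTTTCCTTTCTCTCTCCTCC
RPL21 (chr13:27251543-27251572, +): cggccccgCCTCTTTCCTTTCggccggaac
RPL41 (chr12:56116618-56116647, +): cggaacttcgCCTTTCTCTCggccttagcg
RPLP1 (chr15:69452803-69452832, +): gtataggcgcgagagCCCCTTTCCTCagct
RPSA (chr3:39406705-39406734, +): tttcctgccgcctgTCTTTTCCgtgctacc
RPL36 (chr19:5690280-5690309, +): ccgcgcggcgccagCCCTTCCgccacggcc
RPS27 (chr1:153990747-153990776, +): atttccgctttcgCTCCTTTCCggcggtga
RPS27L (chr15:63157463-63157492, -): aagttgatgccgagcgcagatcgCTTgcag
RPL26 (chr17:8383179-8383208, -): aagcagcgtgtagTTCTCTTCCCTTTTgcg
RPL26L1, first listed start (chr5:172958714-172958743, +): agTCTTCCaggggtcggcgaacgaaacgcg
RPL26L1, second listed start (chr5:172958865-172958894, +): ggcggggcggcggccacaaaCCCgcaggca
The run was at least 24 bases in RPL7A, where it reached the end of the window, 14 in RPL26 and 9 in RPS27. It was 3 bases in RPS27L and 6 or 3 at the starts of RPL26L1, so that each paralogue lacked the long run of its partner.

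The libraries held 18112861 to 36841146 sense counts each. GSTO1 itself, the target of the siRNA, read 3.51 and 3.72 RPKM (reads per kilobase of counted length, scaled to the mapped reads of the library) in the DMSO cultures, 2.70 after siRNA, 3.78 and 4.21 after C1-27 at 4 h and 24 h and 3.82 after C1-14; siRNA acts on mature RNA, so a nascent level does not check the knockdown. Of 8 epithelial markers, KRT8, KRT18, KRT19 and EPCAM were at 2.57 RPKM or more in every library, while VIL1 and CDH17 were near 0. The 8 summed to 27.8 and 17.8 RPKM in the DMSO cultures and 14.9 to 33.2 in the treated libraries. The 10 markers of other cell types were all under 0.5 RPKM in every library (summed 0.319 to 0.827), with CD3E at 0 throughout. By edgeR, KRT8 fell after C1-27 at 24 h (9.60 and 5.81 RPKM in DMSO, 3.90 treated, adjusted p = 0.0441), and SYP, a neuroendocrine marker, rose after siRNA from 0.0517 and 0.0256 to 0.283 RPKM (adjusted p = 0.00143); their part in the results was not tested. Values are relative to the mapped reads of a library of bulk cells, so fewer cells transcribing a gene and less RNA per cell cannot be told apart. Reads on the antisense strand of the ribosomal protein genes were 0.512 to 0.845% as many as sense reads.

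Ribosomal protein genes stood far above the typical gene. Of the 82, 78 exceeded 0.5 RPKM in every library and passed the filters of each comparison (gene size above 300 bp, mean RPKM above 0.5), with 181 to 9894 counts per gene and library. Their median over the mean of both DMSO cultures was 16.9 RPKM, against 1.41 RPKM for the 7825 genes that passed in DMSO, and 76 of the 78 were at or above 4.39 RPKM, the lower bound of the top decile of those genes. They were also short, with a median counted length of 4351 bp, against a median gene span of 27891 bp for genes passing the filter.

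Among the 4 members that did not pass were RPL10L, RPL3L and RPL39L. The testis-associated RPL10L had 0 counts in every library, which allows up to 3 counts in each. RPL3L had 1 to 5 counts and RPL39L 0 to 2, while their partners RPL3 (25.7 and 17.4 RPKM in the DMSO cultures) and RPL39 (10.96 and 8.55 RPKM) were strongly transcribed, as was RPL10 (20.7 and 11.9 RPKM). Reads of near-identical processed pseudogenes may be divided among copies; the 25 pseudogene rows together held 2205 to 4740 counts per library.

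The 5 highest genes by mean DMSO level were RPL21, RPS12, RPL7, RPL41 and RPLP0, the last of which anchors the ribosomal stalk. RPL21 read 114 and 73.8 RPKM in the DMSO cultures, but was counted over 409 of its 5011 bp. RPS12 read 60.1 and 47.9 RPKM, and RPL7 63.7 and 44.1. RPL41, which encodes the smallest ribosomal protein, read 62.8 and 36.5 RPKM, and RPLP0 36.8 and 27.8. The lowest of the measured genes were the paralogues RPL26L1 (1.30 and 1.27 RPKM) and RPS27L (2.30 and 1.95 RPKM), followed by RPS15 (6.30 and 4.28). RPL26 and RPS27, by contrast, read 24.6 and 21.5 RPKM, and 32.2 and 24.4. RPL22L1, a paralogue outside the naming rule, read 24.8 and 24.4 RPKM against 11.9 and 9.54 for RPL22.

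**Figure D1:**
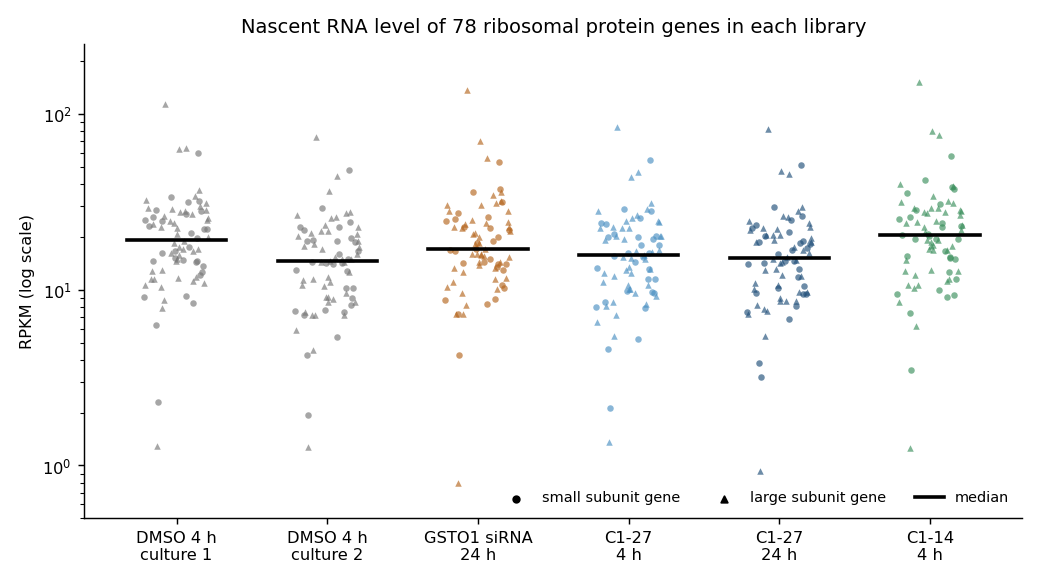
RPKM (log scale) of the 78 measured ribosomal protein genes in each of the 6 libraries, with circles for small subunit genes, triangles for large subunit genes and a bar at the median. The medians run from 14.5 RPKM in DMSO culture 2 to 20.4 in C1-14, and the 2 points near the bottom of each column are RPL26L1 and RPS27L.

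The DMSO cultures differed from each other across the whole family. All 78 genes were lower in culture 2 than in culture 1, with a median log2 ratio of -0.41 and a range from -1.01 to -0.01; of all genes, 58.6% were lower. In 33 of the 78 the gap exceeded 1.4-fold, against 16.3% of all genes. Genes shorter than 10 kb as a whole had a median of -0.32, and all genes -0.08. The controls lay far apart in RPL7A (29.8 and 14.9 RPKM) and RPS21 (15.2 and 7.70). RPS18 (23.0 and 22.9), RPL26L1, RPL5 (23.9 and 23.4) and RPLP1 (22.4 and 21.5) were close to equal. Culture 2 was the more deeply sequenced (40788845 against 23388425 mapped reads), and the part of depth or of the culture in this gap was not tested.

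The family took 0.917% of sense counts in DMSO culture 1 (95% Wilson interval 0.913 to 0.922%) and 0.682% in culture 2 (0.679 to 0.684%). The share was 0.857% after GSTO1 siRNA, 0.743% and 0.722% after C1-27 at 4 h and 24 h, and 0.944% after C1-14 (0.940 to 0.948%). Only the C1-14 library lay outside the DMSO pair, by far less than the gap between the DMSO cultures; the intervals cover counting error only. As a share of the counts of genes shorter than 10 kb, the members of that size took 11.7% and 9.72% in the DMSO cultures and 10.6 to 11.2% in the treated libraries, all 4 of which lay between the controls. The ratio of the highest to the lowest library was 1.39 for the first share and 1.20 for the second.

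**Figure D2:**
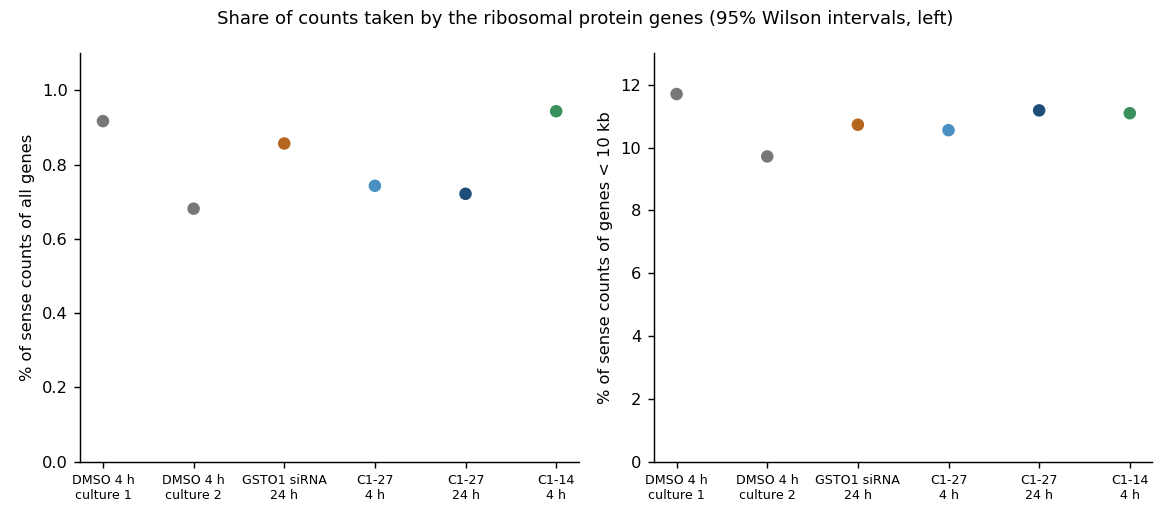
Percent of sense counts taken by the ribosomal protein genes in each library, of all genes (left, bars are 95% Wilson intervals, smaller than the points) and of genes shorter than 10 kb (right). On the right the treated libraries lie between DMSO culture 1 at 11.7% and culture 2 at 9.72%.

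Library by library, the 78 genes were most often highest in C1-14 (47 genes) and DMSO culture 1 (23 genes), and most often lowest in DMSO culture 2 (50 genes). C1-27 at 24 h was lowest for 13, GSTO1 siRNA for 12 and C1-27 at 4 h for 3. GSTO1 siRNA was highest for 6 genes and C1-27 at 4 h for 2. These counts were not made over all genes, so whether they are particular to the family was not tested. Because the 4 comparisons with DMSO share the same control libraries, their values are given side by side and were not correlated.

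GSTO1 siRNA left the family as a whole close to DMSO. The median ratio to the mean of both cultures was 1.08-fold, or 0.11 on the log2 scale (all genes 0.00, genes shorter than 10 kb 0.06), and turned from -0.06 against culture 1 to 0.34 against culture 2. It was -0.03 when RPKM was rescaled with DESeq2 size factors, which moved the median of all genes to -0.15. The family thus stood 0.12 above all genes under that scaling and 0.11 above them as deposited. That difference depended on the control: it was -0.02 against culture 1 alone and 0.27 against culture 2 alone. In edgeR's fit the family median was 0.005 and that of all genes 0.015. Of the 78 genes, 23 lay above both DMSO cultures (35.2% of all genes did), 12 below both (34.2%) and 43 between them. Past 1.4-fold were 7 higher (10.5% of all genes) and 2 lower (6.48%). With TMM factors the split was 4 and 4, with DESeq2 size factors 3 and 4, and centred on genes shorter than 10 kb 6 and 3. For these other scalings the share of all genes was not counted. In edgeR's quasi-likelihood test none passed an adjusted p of 0.05, which 4.16% of 14431 genes did; at an unadjusted p under 0.05 there were 3 higher (9.09% of all genes) and 3 lower (5.19%), and DESeq2 called 0.

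The small subunit gene RPSA (chr3:39448204-39454032, hg19), whose protein is also known as the laminin receptor precursor, read 22.1 and 18.7 RPKM in the DMSO cultures, 14.0 after GSTO1 siRNA, 20.2 and 17.3 after C1-27 at 4 h and 24 h, and 19.5 after C1-14. The siRNA value lay below both controls and below every other library (edgeR log2 fold change -0.65, SE 0.25, adjusted p = 0.133). RPS18 read 23.0 and 22.9 RPKM in DMSO, 16.8 after siRNA, 24.1 and 22.4 after C1-27 and 20.6 after C1-14, with an edgeR log2 fold change under siRNA of -0.56 (SE 0.25, adjusted p = 0.228). Its 2 controls were nearly equal, and the siRNA library stood apart from the remaining 5.

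The paralogues RPS27L and RPL26L1 lay on opposite sides of the controls after siRNA and were the only members past 1.4-fold against each DMSO culture. RPS27L (chr15:63445539-63449741) read 2.30 and 1.95 RPKM in DMSO, 4.25 after siRNA, 2.13 and 3.20 after C1-27 at 4 h and 24 h, and 3.49 after C1-14. The siRNA value was 2.00 times the mean of the controls (edgeR log2 fold change 0.89, SE 0.36, adjusted p = 0.176), and those for C1-27 at 24 h and C1-14 were 1.50 and 1.64 times. Its partner RPS27 read 37.4 RPKM after siRNA, 28.2 and 26.3 after C1-27 and 38.3 after C1-14, a ratio of 1.32 for siRNA. CDKN1A, which encodes the p21 cell cycle inhibitor, read 1.18 and 1.32 RPKM in DMSO and 6.79 after siRNA and passed edgeR's test there (log2 fold change 2.32), while MDM2 read 4.79 and 5.20 and then 8.75 (adjusted p = 0.108).

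RPL26L1 (chr5:172386439-172396774) read 1.30 and 1.27 RPKM in DMSO, 0.799 after siRNA, 1.36 and 0.934 after C1-27 at 4 h and 24 h, and 1.25 after C1-14. The siRNA value was 0.62 of the control mean (edgeR log2 fold change -0.80, SE 0.39, adjusted p = 0.314). RPL26 read 24.8 RPKM after siRNA, 22.3 and 20.4 after C1-27 and 27.7 after C1-14, against 24.6 and 21.5 in DMSO. RPL22 was at 0.94 of the control mean after siRNA, with 10.1 RPKM, and RPL22L1 at 17.3 RPKM lay below both of its controls.

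**Figure D3:**
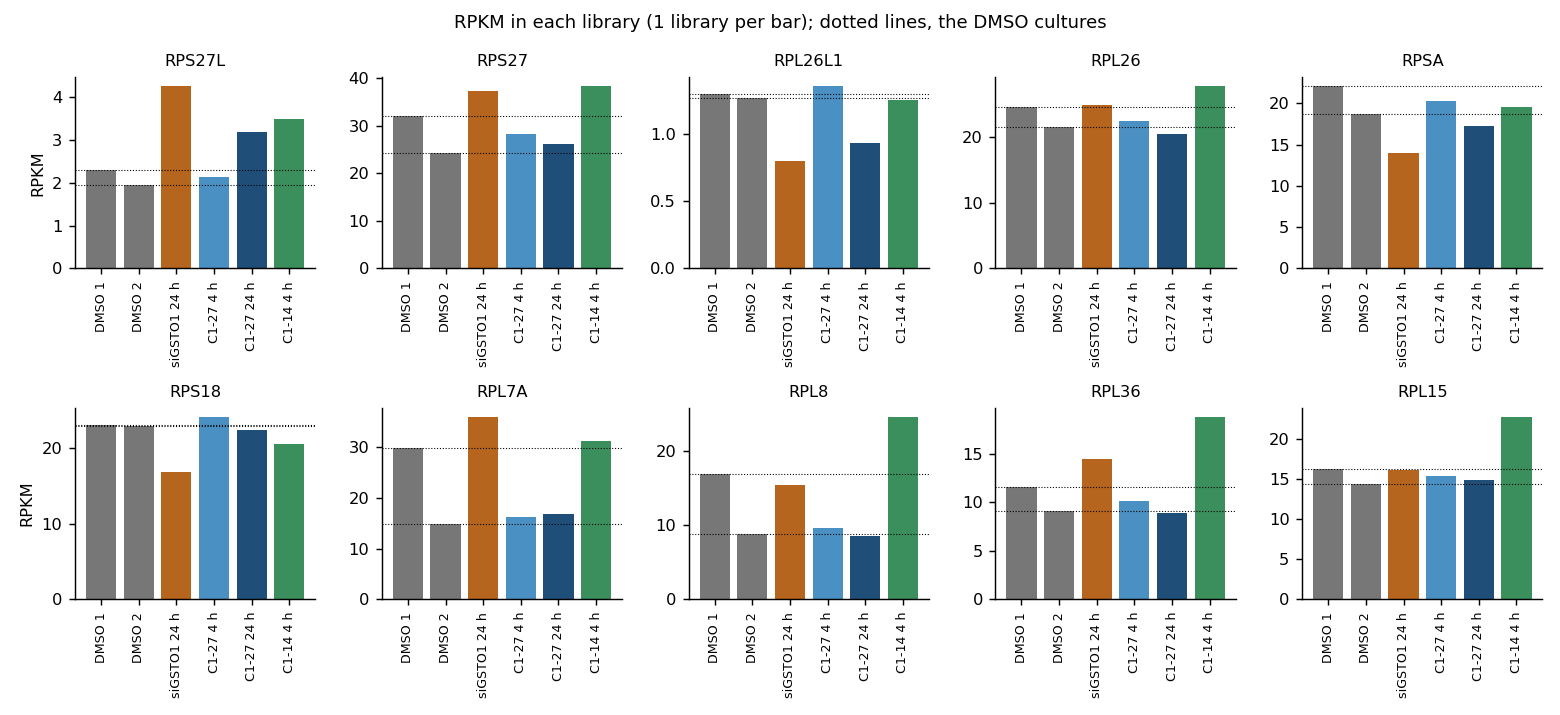
RPKM of 10 ribosomal protein genes in each of the 6 libraries (1 library per bar, axes from 0, dotted lines at the DMSO cultures). RPS27L is highest after GSTO1 siRNA (4.25 RPKM), RPL26L1 and RPSA are lowest there (0.799 and 14.0), and RPL8 and RPL36 are highest after C1-14 (24.6 and 18.8).

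After C1-27 at 4 h most members lay between the DMSO cultures. The median log2 ratio was -0.09 (all genes -0.01, genes shorter than 10 kb -0.10), and it was 0.11 against culture 2, -0.28 against culture 1 and 0.02 when centred on genes shorter than 10 kb. Of the 78 genes 68 lay between the DMSO cultures, 6 above both (21.6% of all genes) and 4 below both (18.9%). The cultures themselves lay farther apart for the family (median log2 ratio -0.41) than for all genes (-0.08). The part of that gap in the count between them was not tested. No gene was past 1.4-fold higher (0.457% of all genes) and 1 was past it lower (2.22%). edgeR called 0 members (0.0139% of all genes) and DESeq2 0; at an unadjusted p under 0.05 there were 0 in either direction (0.277% of all genes higher, 0.443% lower).

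After 24 h of C1-27 the median was -0.13 (all genes 0.03, genes shorter than 10 kb -0.02), with -0.34 against culture 1 and 0.08 against culture 2. Below both DMSO cultures were 20 genes (21.5% of all genes), above both 1 (36.8%), and 57 lay between. The gene above both was RPS27L, also the only member past 1.4-fold higher (3.23% of all genes). Past 1.4-fold lower was RPL8 (3.49% of all genes). With TMM factors or DESeq2 size factors 1 was higher and 6 were lower. These factors moved the median of all genes to -0.02 and -0.04, and the share of all genes past 1.4-fold was not counted for them. RPL8 (chr8:146015154-146017805), a protein near the peptidyl transferase centre, read 17.0 and 8.82 RPKM in DMSO and 8.58 after C1-27 at 24 h (edgeR log2 fold change -0.63, adjusted p above 0.99), just under the lower control. edgeR called 0 members (0.277% of all genes), with 1 lower (1.78% of all genes) and 0 higher (1.95%) at an unadjusted p under 0.05, and DESeq2 called 0.

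Between the C1-27 times the median log2 ratio of RPKM, 24 h to 4 h, was -0.04 (all genes 0.05, genes shorter than 10 kb 0.07), with 26 genes higher (59.1% of all genes) and 52 lower at 24 h. In edgeR's fit with TMM factors the median was -0.12 (all genes 0.03), with 11 genes higher and 67 lower. The share of all genes higher or lower in that fit was not counted, so the split has no background. edgeR called 0 of 78 (0.104% of all genes) and DESeq2 0; at an unadjusted p under 0.05 there were 0 in either direction (1.43% of all genes higher, 1.03% lower). In 5 genes C1-27 lay above both DMSO cultures at 4 h and below both at 24 h, as it did in 4.06% of the genes above 0.5 RPKM in every library. The extremes of the ratio of 24 h to 4 h were RPS27L at 1.50-fold and RPL26L1 at 0.69-fold, the paralogue pair members that were also extreme after siRNA.

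C1-14, the inactive analogue, gave the highest levels. The median ratio was 1.20-fold, 0.26 on the log2 scale (all genes 0.01, genes shorter than 10 kb 0.09), with 0.08 against culture 1 and 0.48 against culture 2. It lay above both DMSO cultures for 51 of 78 genes (27.2% of all genes), below both for 2 (21.6%) and between them for 25. Past 1.4-fold were 12 genes higher (3.71% of all genes) and 0 lower (1.01%). Against culture 1 alone there were 4 higher, against culture 2 alone 39, and centred on genes shorter than 10 kb 7. For these other references the share of all genes was not counted. edgeR called 0 members (0.118% of all genes), with 14 higher (1.12% of all genes) and 0 lower (0.298%) at an unadjusted p under 0.05, and DESeq2 called 0.

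The genes past 1.4-fold against each DMSO culture after C1-14 were RPL8, RPL36, RPS27L and RPL15. RPL8 read 24.6 RPKM after C1-14, 1.91 times the control mean (edgeR log2 fold change 0.97, SE 0.27, adjusted p = 0.160), with 15.5 after siRNA and 9.58 and 8.58 after C1-27 at 4 h and 24 h. It was the gene with the smallest adjusted p of the family in this comparison, and its controls lay 17.0 and 8.82 apart. RPL36 (chr19:5690272-5691678) read 11.6 and 9.13 RPKM in DMSO, 14.5 after siRNA, 10.1 and 8.95 after C1-27 and 18.8 after C1-14 (1.81 times, edgeR log2 fold change 0.88, SE 0.33, adjusted p = 1.00). RPL15 (chr3:23958639-23962332) read 16.2 and 14.3 RPKM in DMSO, 16.1 after siRNA, 15.3 and 14.9 after C1-27 and 22.7 after C1-14, so that only the C1-14 library left the range of the others. RPS21, at 20.7 RPKM, was 1.81 times the control mean but 1.37 times culture 1. The printed starts of RPL36 and RPS27L have runs of 7 and 3 bases; the 13 measured genes without a run of 8 had a median of 0.35 after C1-14 and the 51 with one 0.26. After siRNA these medians were 0.13 and 0.11, and after C1-27 at 24 h -0.13 and -0.14.

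C1-27 and C1-14 were given at 1 and 10 μM, so their values are set side by side without a comparison. At 4 h the family medians against DMSO were -0.09 and 0.26, and the genes above both controls 6 and 51.

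**Figure D4:**
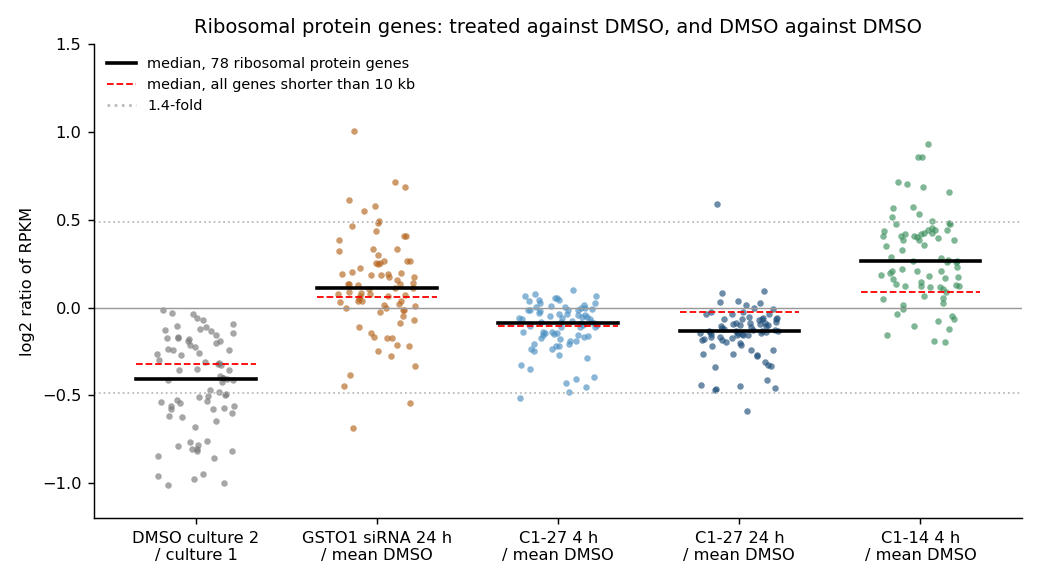
Log2 ratio of RPKM of the 78 ribosomal protein genes between the DMSO cultures and for each treatment against the mean of both cultures (points), with the median of the family (black), of genes shorter than 10 kb (red, dashed) and 1.4-fold (dotted). The family medians are -0.41, 0.11, -0.09, -0.13 and 0.26 from left to right. The first is culture 2 over culture 1 and the others are to the mean of both cultures, so their sizes are not alike. The C1-14 median is 0.08 against culture 1 alone and 0.48 against culture 2 alone.

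GSTO1 siRNA against C1-27, both 24 h, gave the only member to pass edgeR's test. RPL7A (chr9:136215069-136218280), a large subunit gene that hosts SNORD24, SNORD36A, SNORD36B and SNORD36C, read 36.0 RPKM after siRNA and 16.8 after C1-27 at 24 h, a 2.14-fold difference (edgeR log2 fold change 1.04, SE 0.29, adjusted p = 0.0332; 0.991% of all genes passed). The DMSO cultures lay nearly as far apart, at 29.8 and 14.9 RPKM, with C1-27 at 4 h at 16.3 and C1-14 at 31.2. The call was lost with DESeq2 size factors (adjusted p = 0.0806), with no filter on low counts (0.104) and in the DESeq2 Wald test (0.902), and kept with library totals without TMM factors (0.0114). The family median was 0.23 on the log2 scale (all genes -0.04, genes shorter than 10 kb 0.08), and 63 genes were higher (44.0% of all genes) and 15 lower after siRNA. At an unadjusted p under 0.05 there were 8 higher (4.77% of all genes) and 0 lower (1.97%), among them RPL31 (34.6 against 17.5 RPKM) and RPS2 (31.6 against 19.0). RPL31 was counted over 1481 of its 17465 bp, its row being overlapped by RGPD.

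In the DMSO pair and the comparisons with DMSO, the median lay farthest from 0 in the shortest members. Among the 26 shortest members (409 to 3282 bp counted) the median log2 ratio of DMSO culture 2 to culture 1 was -0.60, among the middle 26 -0.38 and among the 26 longest (5265 to 23054 bp) -0.26. The same 3 groups gave 0.44, 0.30 and 0.15 after C1-14, and 0.30, 0.10 and 0.03 after siRNA. They gave -0.20, -0.07 and -0.05 after C1-27 at 4 h and -0.18, -0.12 and -0.11 at 24 h. Spearman's rho with counted length across the 78 genes, which share libraries and controls, was 0.49 for the DMSO pair, -0.52 for siRNA, -0.52 for C1-14, and 0.47 and 0.31 for the earlier and later C1-27 libraries. No such order was seen between the C1-27 times, where the groups gave -0.04, -0.03 and -0.05 and rho was -0.11. It was seen for GSTO1 siRNA against C1-27, both 24 h, with 0.57, 0.22 and 0.12 and a rho of -0.59.

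**Figure D5:**
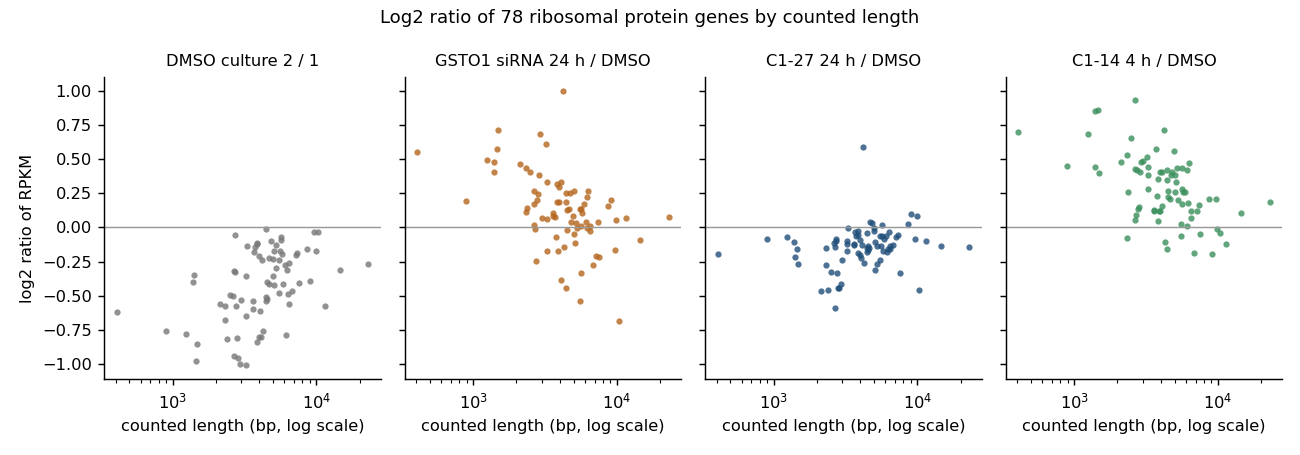
Log2 ratio of RPKM of the 78 ribosomal protein genes against counted length (bp, log scale) for DMSO culture 2 over culture 1, and for GSTO1 siRNA, C1-27 at 24 h and C1-14 over mean DMSO. The 26 shortest genes have medians of -0.60 for the DMSO pair, 0.30 after siRNA, -0.18 after C1-27 and 0.44 after C1-14; the highest point after siRNA and after C1-27 is RPS27L, which is not among them.

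The median log2 ratios of small and large subunit genes were 0.16 (31 genes) and 0.08 (47 genes) after siRNA, -0.08 and -0.10 after C1-27 at 4 h, -0.10 and -0.15 at 24 h, and 0.38 and 0.26 after C1-14. Among the stalk proteins, which recruit translation factors, RPLP0 and RPLP1 were at 0.99 and 0.84 of the control mean after siRNA and 1.21 and 1.34 after C1-14, while RPLP2 was at 1.19 and 1.11. RPL5 and RPL11, which bind MDM2 when ribosome assembly is disturbed, were at 0.89 and 1.10 after siRNA, 0.94 and 0.90 after C1-27 at 24 h, and 1.15 and 1.16 after C1-14. RPS6, the substrate of S6 kinase, was at 1.14, 0.94 and 1.33, and RPS3 at 1.13, 0.94 and 1.20. RPS14 and RPS19, known from anaemias of ribosomal insufficiency, were at 1.10 and 1.05 after siRNA, 0.96 and 0.93 after C1-27 at 24 h, and 1.02 and 0.92 after C1-14. RPL3 was at 1.01, 0.91 and 1.09, and RPL13A at 0.90, 0.83 and 0.93.

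Other genes of ribosome production were taken from lists written with earlier results of these data known. Of 65 ribosome biogenesis genes that passed the RPKM filter, 48 lay below both DMSO cultures after siRNA and 2 above, with a median log2 ratio of -0.31 (34.2% of all genes lay below both), and 54 lay below both after C1-27 at 24 h and 2 above, with a median of -0.27 (21.5% of all genes lay below both). At 4 h of C1-27, 8 lay below both (18.9% of all genes) and 11 above (21.6%), with a median of -0.04. After C1-14, 4 lay below both (21.6% of all genes) and 21 above (27.2%), with a median of 0.03. Of the 66 tested by edgeR, 2 fell after siRNA. The 4.16% of all genes called there counts higher and lower genes together, so it is not a background for falls alone. The share of all genes called lower was not counted. The 2 were UTP20 (2.08 and 2.22 RPKM in DMSO, 1.16 after siRNA, log2 fold change -1.01), a factor of small subunit processing, and the RNA helicase DDX47 (4.90 and 6.18, then 3.50, log2 fold change -0.78). DDX47 passed only narrowly, and the alternative tests were not read for either gene. None of the 66 passed edgeR's test in the other comparisons with DMSO; at an unadjusted p under 0.05, 15 were lower after siRNA (5.19% of all genes), 9 after C1-27 at 24 h (1.78%) and 0 at 4 h. The 15 genes of RNA polymerase I had medians of -0.24 after siRNA and -0.19 after C1-27 at 24 h. Below both controls lay 8 (34.2% of all genes) and 7 (21.5%). None passed edgeR's test. At an unadjusted p under 0.05, 5 were lower after siRNA (5.19% of all genes) and 0 after C1-27 at 24 h (1.78%). Of 24 translation factor and other TOP genes, 12 lay below both controls after siRNA (34.2% of all genes, median -0.14). After C1-27 at 24 h, 13 lay below both (21.5% of all genes, median -0.17). After C1-14, 13 lay above both (27.2% of all genes, median 0.14). None of 25 tested passed in edgeR. At an unadjusted p under 0.05, 1 was lower after siRNA (5.19% of all genes) and 1 lower after C1-27 at 24 h (1.78%). After C1-14, 5 were higher at that level (1.12% of all genes). FAU, which encodes a ribosomal protein fused to a ubiquitin-like domain and lies outside the naming rule, read 9.53 and 5.65 RPKM in DMSO and 9.63 after siRNA. It stood in a list of 5 fusion genes and paralogues outside the rule, with RPL36AL, RPL22L1 and RPL7L1 among them, none of which passed edgeR's test against DMSO (1 lower at an unadjusted p under 0.05 after siRNA).

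Of 15 regulators tested, MYC, a transcription factor known to drive ribosome production, read 22.8 and 20.2 RPKM in DMSO, 10.96 after siRNA and 10.1 after C1-27 at 24 h, and fell in both by edgeR (log2 fold change -1.08 and -1.14, adjusted p = 0.00133 and 0.00453). At 4 h it read 18.3 after C1-27 and 19.0 after C1-14. SESN2 and DDIT4, known inhibitors of mTORC1, rose after siRNA by 1.92 and 3.67 on the log2 scale, DDIT4 from 0.887 and 0.546 to 9.70 RPKM. After C1-27 at 24 h DDIT4 read 1.65 RPKM and SESN2 0.880, and neither passed. Over the same libraries the ribosomal protein genes had the medians of 0.11 and -0.13 given above and no call against DMSO. Any relation of the family to these regulators was not tested. With 1 library per treatment, a lack of calls does not show a lack of change.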

How the data were processed

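Bru-labelled RNA of HCT116 cells was sequenced by the authors in 6 libraries. The submitters' processing notes name CASAVA 1.8.2, Bowtie 0.12.8, TopHat 1.4.1, bedtools 2.16.2 and hg19, without roles. The deposited files give, per gene and strand, expected counts over the counted length (exons and introns, less bases of other listed rows such as snoRNAs), a signal (deposited count per bp) and RPKM, normalized by the authors to length and mapped reads.

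The labels give the siRNA culture as 24 h, whereas the methods sentence on Bru-seq reads as 4 h; the label was used.

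Members and gene lists were chosen with earlier results of these data known. RPKM ratios to the mean of both DMSO cultures carried no pseudocount, after filters on span (above 300 bp) and mean RPKM (above 0.5). Rounded counts of 14431 genes with at least 10 counts in at least 2 libraries were tested in 5 groups with edgeR 4.0.16 (R 4.3.3, TMM, quasi-likelihood, Benjamini-Hochberg over all genes). DESeq2 1.42.0 was an alternative. The edgeR code was also run on simulated data, with the same dispersion for all genes and the same mean profile for both DMSO cultures. That simulation held no gap between the cultures that varies with gene length, so it cannot check the test for this family. Only the DMSO pair gives residual degrees of freedom (1), and p-values measure the spread between those cultures, whose independence the labels do not state. Depth was 23388425 to 46017051 mapped reads. Named were edgeR calls, up to 4 members per treatment and direction past 1.4-fold against each DMSO culture, the 5 highest and lowest, and members by role or paralogue pair; RPS18, RPS21, RPS2 and RPL31 were added after their values were seen. A few genes are not reported here. Python 3.11.15 with pandas 2.3.3 and scipy 1.17.1 was used. Promoters came from RefSeq.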

Additional observations from a re-analysis of the deposited data

Results flagged for a closer look

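In 5 genes the C1-27 libraries lay on opposite sides of both DMSO cultures, above them at 4 h and below them at 24 h, as did 4.06% of the genes above 0.5 RPKM in every library; edgeR's test of 24 h against 4 h passed none of them (adjusted p = 1 for each). The ratio of 24 h to 4 h was 0.907 for RPL5, 0.906 for RPLP1, 0.917 for RPL35A and 0.929 for RPS18, genes whose DMSO cultures were close together (23.0 and 22.9 RPKM for RPS18). It was 0.689 for RPL26L1, with 1.36 and 0.934 RPKM against 1.30 and 1.27 in DMSO. No explanation was tested.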

How the results depend on the processing

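Of 114 alternative values, 86 kept their direction and size or their side of the threshold. The choice of DMSO culture moved most: leaving out either one gave family medians of -0.062 to 0.34 for GSTO1 siRNA, -0.28 to 0.11 and -0.34 to 0.07785 for C1-27 at 4 h and 24 h, and 0.08 to 0.48 for C1-14, and counts past 1.4-fold of 5 to 26, 0 to 18, 1 to 19 and 4 to 39 (9, 1, 2 and 12 with both). For siRNA the median was -0.0267 with DESeq2 size factors, and 4 genes passed 1.4-fold among members with no snoRNA row or overlapping row. For C1-27 at 4 h the median was 0.0176 when centred on genes shorter than 10 kb, and the count was 0 with TMM factors, DESeq2 size factors, that centring and without snoRNA hosts, and 2 with no RPKM filter. For C1-27 at 24 h the count was 7 with TMM factors and 7 with DESeq2 size factors, and for C1-14 it was 7 when centred on short genes. For siRNA against C1-27 at 24 h, edgeR's single call became 0 with DESeq2 size factors, with no filter on low counts and in the DESeq2 Wald test. The cause was not tested in any of these, and the share of all genes past 1.4-fold was not counted for the alternatives. Leaving out RPL21 and RPL31, an alternative chosen after seeing the data, changed no direction. With 1 library per treatment and 1 residual degree of freedom, edgeR could not be run without a DMSO culture. No paired analysis was possible because the treated groups have 1 library each and share fewer than 2 replicate numbers with DMSO.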
